A study of Mus musculus with 2 samples.

Results

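Hox genes encode homeodomain transcription factors that give cells their position along the head-to-tail axis of the embryo. In the mouse they lie in 4 clusters, HoxA to HoxD, in which genes of the same number (a paralogue group) descend from a common ancestor. Low numbers lie at the 3′ end of a cluster and act towards the head, high numbers lie at the 5′ end and act towards the tail, and the clusters are opened in that order as the embryo gastrulates. In embryonic stem cells they are textbook targets of Polycomb repression, in which PRC2 places H3K27me3 and PRC1 places H2AK119ub1 over the whole cluster. The members were chosen by name alone, as every gene of the deposited table called Hoxa, Hoxb, Hoxc or Hoxd followed by a number. This gave 39 genes of 22556, with 11 in HoxA, 10 in HoxB, 9 in HoxC and 9 in HoxD.

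The values are fragment counts from mRNA of uninduced iXist-ChrX-Dom cells, a female (XX) mouse embryonic stem cell (mESC) line from a cross of Dom/129S with Cast. Its endogenous Xist promoter on the Dom/129S allele was replaced with a TetOn promoter, and neither replicate was treated, so the only time is 0 h. The series has 1 group with 2 replicates and therefore no comparison of conditions, and the study used it to rank genes by starting expression. Nothing in the labels says that the replicates came from separate cultures, so p-values measure the difference between these libraries only, which may be technical. The cells had been grown on fibroblast feeders, which were removed by pre-plating. The count table sums to 23716499 fragments for replicate 1 and 20275749 for replicate 2, and levels are given as counts per 1000000 (CPM). For a gene with no count whose zero can be read, the limit used is 3 counts (close to the one-sided 95% Poisson limit), which is 0.126 CPM in replicate 1 and 0.148 CPM in replicate 2. Intervals and these floors cover counting error only. The libraries stand apart from each other at many genes, with 60.8% of 14536 genes tested differing beyond sampling. Counts are therefore given for each replicate where they are printed, while some levels are given only as a mean of the 2.

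The 4 clusters together gave few counts. All 39 Hox genes summed to 260 counts in replicate 1 and 202 in replicate 2. As a level this was 10.96 CPM (95% exact Clopper-Pearson interval 9.67 to 12.4) and 9.96 CPM (8.64 to 11.4), with a mean of 10.5 ± 0.707 CPM (SD, n = 2). The 2 sums did not differ beyond sampling (two-sided exact binomial test, p = 0.327). In replicate 1, 7616 single genes each had more counts than all Hox genes together, and in replicate 2 there were 7021 such genes.

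Of the 39 genes, 9 reached 10 counts in the 2 libraries together, or 23.1%, beside 64.4% of all genes in the table. Another 15 had 1 to 9 counts, and 15 (38.5%) were at 0 in both libraries, beside 21.1% of all genes. Of these 15 zeros, 4 cannot be read, because the genes lie wholly inside another gene on the strand. Such genes make up 10.3% of the Hox genes and 1.75% of all genes, so the 2 shares at 0 are not fully alike. A count in both libraries was found for 19 Hox genes, beside 71.6% of all genes. The 5 genes counted in only 1 library had at most 3 counts there. The median Hox gene had 2 counts and the median over all genes was 66.

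Levels between genes are compared as transcripts per 1000000 (TPM), which are counts per kb scaled to that sum in each library. Fragments were counted over the whole transcribed span, introns included, so TPM was computed with that span (span TPM) and, since mature mRNA fills only the exons, with the exonic length (exonic TPM). The median Hox gene had a span TPM of 0.191, beside 1.35 for all genes, and it was 0.0698 in replicate 1 and 0.238 in replicate 2 alone. By exonic TPM the medians were 0.0799 and 1.85. A span TPM of at least 1 was reached by 9 Hox genes, beside 52.7% of all genes, and an exonic TPM of at least 1 by 3.

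**Figure D1:**
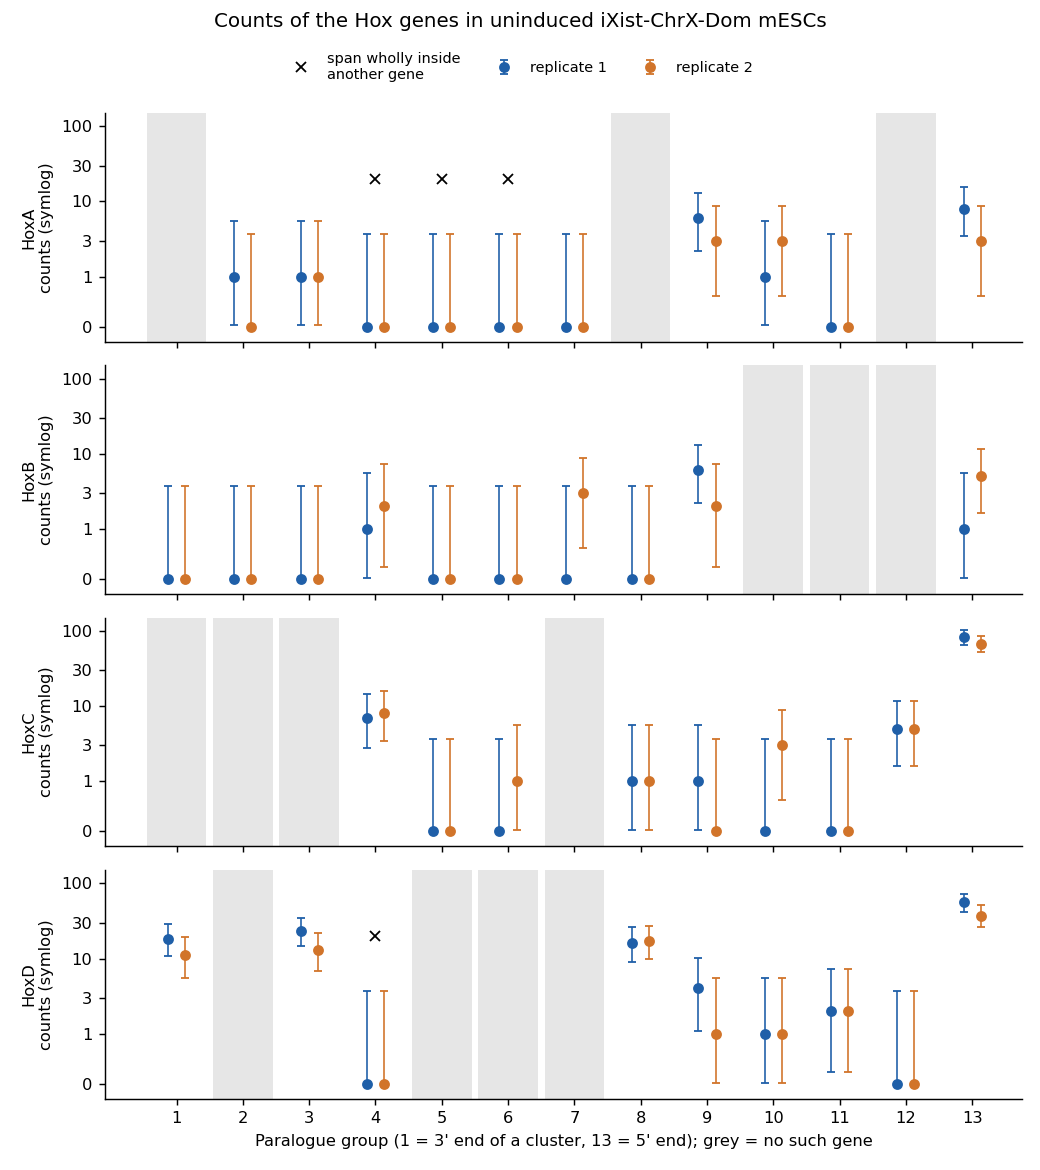
Counts of 38 of the Hox genes (y axis, symlog) by paralogue group (x axis) in the 4 clusters, with 1 point per replicate and bars for the 95% exact Poisson interval. Hoxc13 and Hoxd13 stand above all other members, groups with no gene in a cluster are grey, and crosses mark Hoxa4, Hoxa5, Hoxa6 and Hoxd4, whose spans lie wholly inside another gene.

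The posterior genes Hoxc13 and Hoxd13 had the most counts. Group 13 acts at the tail end of the axis and in digits, genitalia and, for Hoxc13, hair and nails. Hoxc13 (chr15:102921130-102928814, plus strand, mm10) had 83 and 68 counts. Its level was 3.43 ± 0.103 CPM (SD, n = 2), 7.56 ± 0.389 span TPM and 4.53 ± 0.0595 exonic TPM. Hoxd13 (chr2:74668309-74671599, plus strand), required for normal digits, had 56 and 37 counts. Its level was 2.09 ± 0.379 CPM, 10.7 ± 1.08 span TPM and 2.73 ± 0.378 exonic TPM. Hoxc13 was thus the higher of the pair per exonic length and Hoxd13 per span, and the values of the 2 replicates did not overlap on either scale. Even Hoxd13, the highest member by span TPM, lay at the 71.2 percentile of all genes. Together these genes took 53.5% of the Hox counts in replicate 1 (95% exact Clopper-Pearson interval 47.2 to 59.6) and 52.0% in replicate 2 (44.9 to 59.0). Their share was 41.9% of the summed span TPM of the Hox genes and 50.2% of the summed exonic TPM.

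The other group 13 genes were much lower. Hoxa13, which acts in limbs and the urogenital tract, had 8 and 3 counts, or 0.243 ± 0.134 CPM, 1.98 ± 0.954 span TPM and 0.316 ± 0.162 exonic TPM. Hoxb13, known for its role in the prostate and tail, had 1 and 5 counts, and these 2 values have wide intervals. As a group the 4 genes had 148 and 113 counts, or 56.5% of all Hox counts.

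Among the remaining posterior genes (groups 9 to 12), Hoxc12 alone reached 10 counts, with 5 in each library, 0.229 ± 0.0253 CPM, 2.34 ± 0.448 span TPM and 0.724 ± 0.111 exonic TPM. Hoxa9, a gene of blood progenitors and leukaemia, had 6 and 3 counts. Hoxb9 had 6 and 2 counts and Hoxd9 had 4 and 1. The rest of the posterior genes with a count had no more than 4. Hoxd11 had 2 in each library, Hoxa10 had 1 and 3, Hoxc10 had 0 and 3, Hoxd10 had 1 in each, and Hoxc9 had 1 and 0. The 12 posterior genes outside group 13 together had 46 counts. Hoxa11, Hoxc11 and Hoxd12 were at 0 in both libraries, so within HoxD a gene at 0 directly follows the counted Hoxd13.

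The anterior genes (groups 1 to 3), which pattern the hindbrain and are the first to answer retinoic acid, ranged from no count to 36 counts. Hoxd1 (chr2:74762979-74765142, plus strand) had 18 and 11 counts, or 0.651 ± 0.153 CPM, 5.05 ± 0.784 span TPM and 1.13 ± 0.218 exonic TPM. Hoxb1, its paralogue and a gene of the fourth rhombomere, had no count in either library. Hoxd3 (chr2:74711992-74748271, plus strand) had 23 and 13 counts, or 0.805 ± 0.232 CPM, 0.372 ± 0.0780 span TPM and 0.803 ± 0.198 exonic TPM. Its span of 36280 bp, with an exonic length of 3244 bp, places it far lower on the span scale. Hoxa3, which patterns the pharyngeal arches, had 1 count in each library and Hoxa2 had 1 and 0. Hoxb2 and Hoxb3 were at 0.

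The central genes (groups 4 to 8), which pattern the neck and trunk, were the least counted, but 4 of the 15 cannot be read. Hoxd8 (chr2:74704614-74707932, plus strand) had 16 and 17 counts, or 0.757 ± 0.116 CPM, 3.89 ± 0.907 span TPM and 0.9002 ± 0.176 exonic TPM. Hoxc4 had 7 and 8 counts, or 0.345 ± 0.0703 CPM, 2.399 ± 0.679 span TPM and 0.439 ± 0.108 exonic TPM. For Hoxc4 and Hoxa13 the exonic length of the annotation, 2568 and 2472 bp, exceeds the deposited span of 2459 and 2029 bp. The other central genes with a count were Hoxb4 with 1 and 2, Hoxb7 with 0 and 3, Hoxc8 with 1 in each and Hoxc6 with 0 and 1. Group 5 had no count in any cluster, although the zero of Hoxa5 cannot be read.

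Central genes at 0 in both libraries were Hoxa4, Hoxa5, Hoxa6, Hoxa7, Hoxb5, Hoxb6, Hoxb8, Hoxc5 and Hoxd4. For 4 of these the zero cannot be read, because their spans are shared. Hoxa4, Hoxa5 and Hoxa6 lie wholly inside the span of Hoxa3 on the same strand, and Hoxd4 lies wholly inside that of Hoxd3. A fragment in 2 genes of a strand is left uncounted at the default setting of the counting tool. In the whole table, 394 genes (1.75%) lie wholly inside others on their strand. Of the 15 Hox zeros, 11 remain readable. Hoxa3 and Hoxd3 lose fragments in the same way, over 16.2% and 19.8% of their spans.

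Ordered by exonic TPM, 8 of the members with at least 10 counts ran Hoxc13, Hoxd13, Hoxd1, Hoxd8, Hoxd3, Hoxc12, Hoxc4 and Hoxa13. The replicate values of Hoxc13 and Hoxd13 did not overlap, nor did those of Hoxd13 and Hoxd1. From Hoxd1 to Hoxc12 each neighbouring pair overlapped, so the order of neighbours within these 4 genes is not set by the data. The values of Hoxd1 (1.29 and 0.977) did not overlap those of Hoxd3 (0.943 and 0.663) or Hoxc12 (0.645 and 0.802). These 2 differences were not tested. Hoxc12 and Hoxc4 did not overlap, but with 10 and 15 counts the gap lies within counting error in each library.

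The clusters shared the counts unequally. HoxD had 120 and 82 counts, or 43.4% ± 3.93 of the Hox counts (SD, n = 2), and HoxC had 97 and 86, or 39.9% ± 3.72. These shares overlap between replicates, since HoxC was the higher in replicate 2 and HoxD in replicate 1. HoxA had 35 and 22 counts (12.2% ± 1.82), and HoxB, the cluster that holds 10 genes, had 8 and 12 (4.51% ± 2.02). Of the genes that cannot be read, 3 are in HoxA and 1 in HoxD, so any fragments of theirs are missing from these shares. In HoxB no gene reached 10 counts and 6 were at 0. With the most counted gene of each cluster left out, HoxC fell to 18.1% and HoxD rose to 60.1%, because Hoxc13 alone held 151 of the 183 HoxC counts.

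By position, the 16 posterior genes held 66.4% ± 0.765 of the Hox counts, the 8 anterior genes 20.9% ± 3.64 and the 15 central genes 12.7% ± 4.40. Of the 15 central genes, 4 cannot be read, so any fragments of theirs are missing from the central share. In replicate 1 the posterior share was 66.9% (95% exact Clopper-Pearson interval 60.8 to 72.6) and in replicate 2 it was 65.8% (58.9 to 72.4). The 8 outermost genes, a division chosen after the values were seen, had 191 and 144 counts, or 72.4% ± 1.54. Of their 335 counts, 261 lay at the 5′ ends and 74 at the 3′ ends, where Hoxb1 had none. The 31 genes inside the clusters had 127 counts, of which 80 were in HoxD, 16 in HoxA, 14 in HoxB and 17 in HoxC. Without Hoxc13 and Hoxd13 the outermost share was 41.6%, and the posterior share was 28.9%, beside 44.3% for the anterior and 26.8% for the central genes.

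Some genes within 200 kb of the clusters had many counts. HoxA, on the minus strand of chromosome 6, is flanked on the 3′ side by Gm15055 (119 and 115 counts) and Skap2, a signalling adaptor (1549 and 1438). On its 5′ side Hottip, a noncoding RNA that starts beside Hoxa13, and Evx1, a homeobox gene, were at 0. HoxB (chr11:96194360-96368253) had next to it Ttll6, a tubulin ligase gene, on the 5′ side (271 and 130 counts) and Gm11529 on the 3′ side (2 and 0), with Skap1 beyond (59 and 49). Further out on the 5′ side, Igf2bp1, an RNA-binding protein gene, had 4148 and 3558 counts. Between them, Snf8 (mean 16.9 span TPM), Ube2z (38.8) and Calcoco2 (27.4) also passed 10 span TPM. Their counts were 369 and 197, 1349 and 547, and 680 and 289. The HoxB genes themselves never exceeded 6 counts in a library.

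HoxC (chr15:102921130-103036852) had 2 genes of at least 10 span TPM on its 3′ side. Cbx5, which encodes the heterochromatin protein HP1 alpha, was at 736 ± 29.8 CPM, and Smug1, a DNA glycosylase gene, at 15.2 ± 4.36 CPM. Next in gene order, Cistr-act on the 5′ side, 174.2 kb away, was at 0, and D930007P13Rik on the 3′ side, 86.2 kb away, had 1 and 2 counts. HoxD (chr2:74668309-74765142) lies between Evx2, a homeobox gene at 0, and Mtx2, a mitochondrial import gene with 3330 and 2880 counts. Lnp, an endoplasmic reticulum gene beyond Evx2, had 5093 and 6665. Mtx2 is 60.7 kb from Hoxd1, and its level of 141 ± 1.15 CPM stands against 4.55 CPM for all 9 HoxD genes together.

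Over the 4 regions, 14 of 22 genes beside the clusters (63.6%) reached 10 counts, beside 64.4% of all genes, and 5 (22.7%) were at 0, beside 21.1%. Their median was 206.5 counts, beside 66 for all genes and 2 for the Hox genes. Of the 9 genes inside the clusters that are not Hox genes, Gm53 in HoxB (78 and 27 counts) and 6720416L17Rik in HoxD (15 and 12) reached 10 counts. Hotair, the noncoding RNA of HoxC, Hoxd3os1, 2700086A05Rik and LOC102634401 were at 0. Hoxa11os had 0 and 1 counts, Mira had 1 and 0, and Gm11538 had 4 and 2. Gm53 was therefore counted more often than the whole of the HoxB genes, which had 20 counts.

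**Figure D2:**
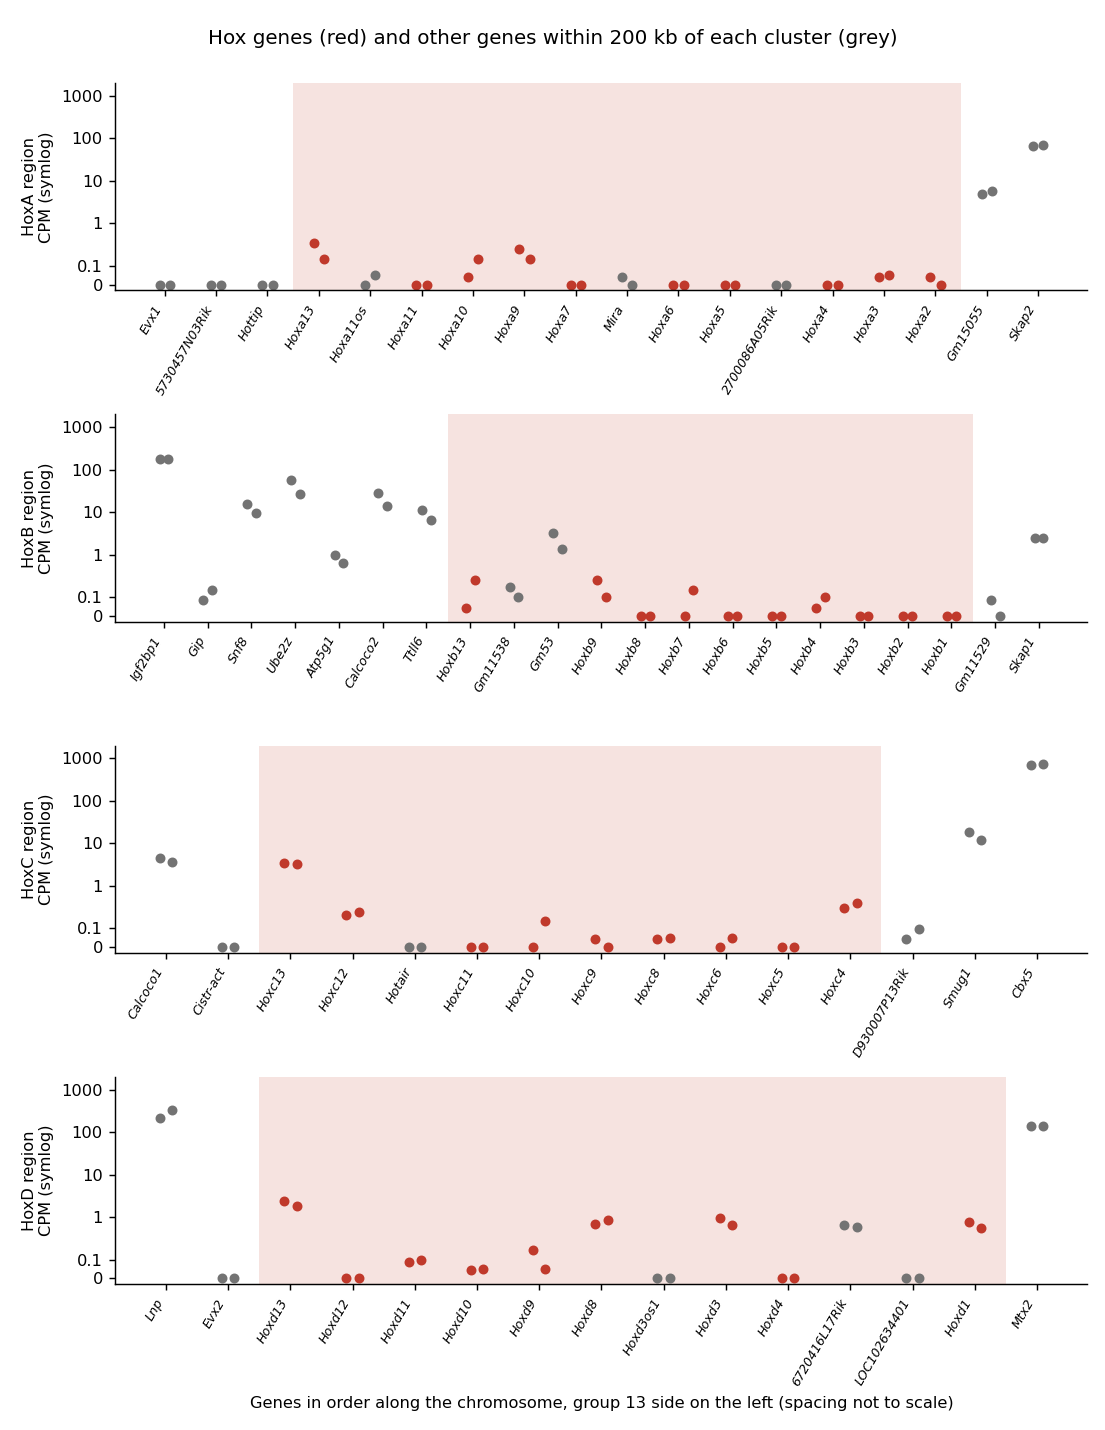
CPM of the genes described (y axis, symlog) in order along the 4 Hox regions (x axis, not to scale), with 1 point per replicate, Hox genes in red, other genes in grey and the clusters shaded. Genes such as Skap2, Igf2bp1, Cbx5, Lnp and Mtx2 lie above 10 CPM outside the shading, and every Hox gene shown lies below 10 CPM.

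Promoters of the Hox genes were rich in CpG, the dinucleotide that is depleted in most of the genome and kept at CpG islands, where Polycomb complexes are known to bind. RefSeq windows (GRCm38.p6, 250 bases before to 50 after a start) matched 22 Hox genes with 24 windows. Genes without an entry included Hoxa4, Hoxb2, Hoxb3, Hoxb5, Hoxb6, Hoxb7, Hoxb9, Hoxb13, Hoxc5, Hoxc6, Hoxc8, Hoxc9, Hoxc10, Hoxc11, Hoxc12 and Hoxc13. The 250 bases before the start are shown for Hoxd13, the most counted gene with a window, and for its cluster members Hoxd12 (at 0) and Hoxd1 (29 counts) and the Hoxd1 paralogue Hoxb1 (at 0), to set counted beside uncounted members. All 4 were chosen with the counts known. CpG is in capitals, and each stretch is on the plus strand of GRCm38.p6, at chr2:74667975-74668224 for Hoxd13, chr2:74674763-74675012 for Hoxd12, chr2:74762730-74762979 for Hoxd1 and chr11:96365508-96365757 for Hoxb1.
Hoxd13: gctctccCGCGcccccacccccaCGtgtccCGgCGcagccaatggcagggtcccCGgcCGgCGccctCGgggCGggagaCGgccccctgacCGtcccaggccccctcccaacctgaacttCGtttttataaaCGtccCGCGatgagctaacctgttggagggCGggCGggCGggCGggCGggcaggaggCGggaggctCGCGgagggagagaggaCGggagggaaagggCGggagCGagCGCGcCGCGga
Hoxd12: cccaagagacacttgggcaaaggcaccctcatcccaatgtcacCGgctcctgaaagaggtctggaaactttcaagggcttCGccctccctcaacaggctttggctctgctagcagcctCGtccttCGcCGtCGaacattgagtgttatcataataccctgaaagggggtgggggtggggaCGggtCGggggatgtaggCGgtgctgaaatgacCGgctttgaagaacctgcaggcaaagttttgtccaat
Hoxd1: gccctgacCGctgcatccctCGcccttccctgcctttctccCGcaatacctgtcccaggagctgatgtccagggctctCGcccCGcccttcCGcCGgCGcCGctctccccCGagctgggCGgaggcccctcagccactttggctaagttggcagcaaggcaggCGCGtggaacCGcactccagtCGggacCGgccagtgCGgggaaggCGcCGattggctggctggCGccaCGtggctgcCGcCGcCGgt
Hoxb1: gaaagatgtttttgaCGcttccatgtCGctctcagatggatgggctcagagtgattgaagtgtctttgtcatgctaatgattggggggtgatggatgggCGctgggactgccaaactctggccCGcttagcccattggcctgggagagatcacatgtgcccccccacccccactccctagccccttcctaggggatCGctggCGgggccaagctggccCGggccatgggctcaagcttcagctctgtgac

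The stretch of Hoxd13 (93 counts) holds 31 CpG and that of Hoxd1 (29 counts) holds 24, whereas those of Hoxd12 and Hoxb1, both at 0, hold 10 and 7. Not all members follow this contrast. Over the whole windows, the median ratio of observed to expected CpG was 0.626 for the Hox genes, beside 0.384 for all 32841 windows, and 18 of 24 Hox windows lay above that median. The 5 windows of Hox genes at 0 counts whose zero can be read (Hoxa7, Hoxa11, Hoxb1, Hoxb8 and Hoxd12) had a median ratio of 0.574 (0.380 to 0.970), beside 0.165 for the genes of the table at 0 counts. The 6 windows of Hox genes with at least 10 counts had a median of 0.855 (0.333 to 0.920), beside 0.730 for such genes of the table. These ranges overlap. Hoxb8, at 0, had a ratio of 0.970, while Hoxd8 and Hoxc4, with 33 and 15 counts, had 0.367 and 0.333. The windows of Hoxa5, Hoxa6 and Hoxd4, whose zeros cannot be read, had ratios of 1.02, 0.923 and 0.339 and were left out of the uncounted.

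The motif TATAAA, searched on both strands, was in 4 of 24 Hox windows (16.7%), beside 13.6% of all windows. On the strand of the gene only Hoxd13 held it (4.17% of windows, beside 8.32%), at position −124 from the RefSeq start and overlapping a match on the other strand. The deposited table starts Hoxd13 further downstream than RefSeq does.

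**Figure D3:**
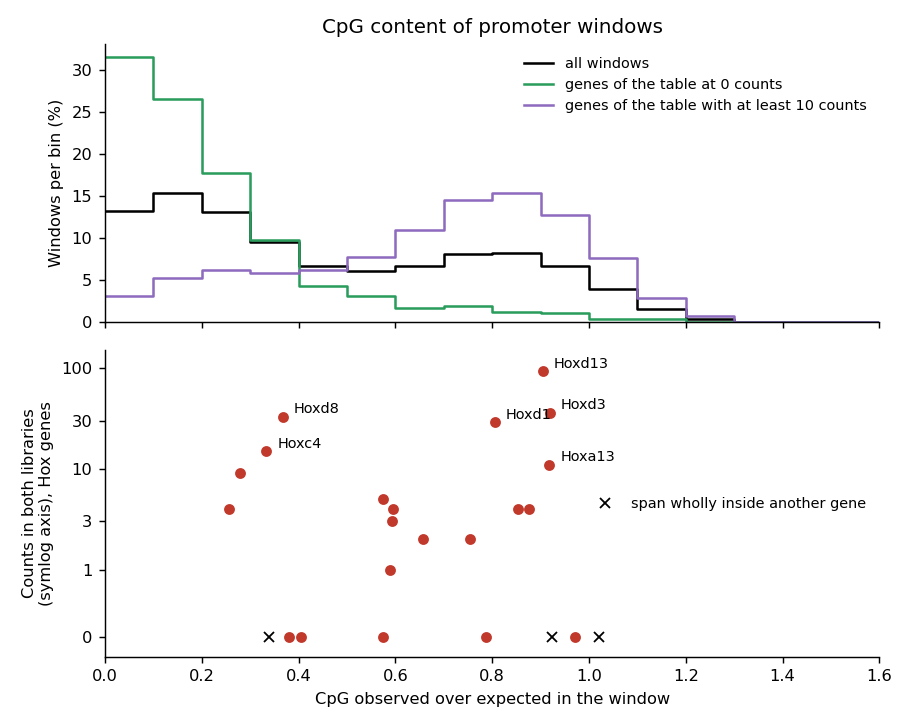
Top, share of promoter windows (y axis, percent) per bin of CpG observed over expected (x axis) for all windows and for genes of the table at 0 or at least 10 counts. Bottom, counts of the Hox genes (y axis, symlog) against the same ratio, with 1 point per window and crosses for genes whose zero cannot be read. The readable uncounted Hox windows spread from 0.380 to 0.970 and those with at least 10 counts from 0.333 to 0.920.

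Between the replicates, no Hox gene of the 9 tested differed (two-sided exact binomial test against the ratio of library totals, Benjamini-Hochberg adjustment over 14536 genes; smallest adjusted p = 0.314). None had an unadjusted p under 0.05, the smallest being 0.242 for Hoxa13. Apart from Hoxc13 and Hoxd13, the genes tested had 10 to 36 counts in the 2 libraries together. At such counts only large differences can be called, so the result does not show agreement. The background is high, since 60.8% of all genes tested were called, 45.7% lower and 15.1% higher in replicate 2. Among the 4908 genes with no more counts than the highest Hox gene, 36.3% were called. The log2 ratio of replicate 2 to replicate 1 had a median of −0.34 over the Hox genes tested (−1.05 for Hoxa13 to 0.41 for Hoxc4), beside −0.31 over all genes and −0.68 over the genes with no more counts than the highest Hox gene. The 6 genes lower in replicate 2 included Hoxa13, Hoxc13, Hoxd1, Hoxd3 and Hoxd13, and the 3 higher were Hoxc4, Hoxc12 and Hoxd8. Spearman's rho of the counts was 0.836 across the 39 genes, beside 0.980 across all genes, which share libraries and are not independent replicates.

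GC content moved with the replicate ratio across genes. The Hox transcripts had a median GC of 53.5% (42.4 to 62.3), beside 48.7% for all genes, and 35 of 39 lay above that value. At the median GC of the Hox genes tested, autosomal genes were expected at a log2 ratio of −0.67. Against this trend Hoxc13, at a log2 ratio of −0.06, was called, as were 45.6% of all genes in that test. The part of GC in the Hox values was not tested.

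**Figure D4:**
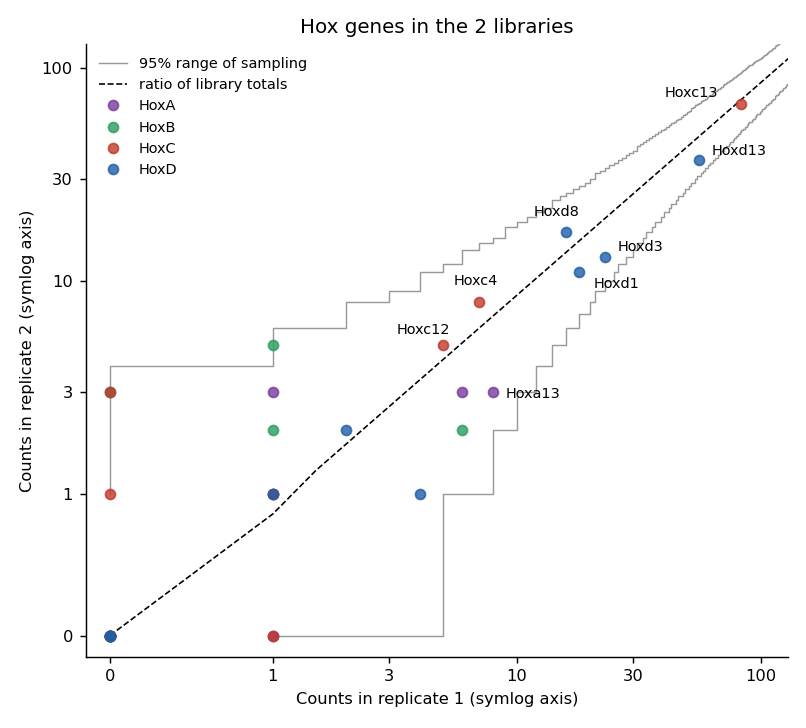
Counts of 38 of the Hox genes in replicate 1 (x axis) and replicate 2 (y axis), both symlog, by cluster. The dashed line is the ratio of library totals and the grey steps bound its 95% sampling range, within which all 8 named genes lie.

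The mRNAs of genes that act on Hox clusters were present at unequal levels. The list of repressors held 15 Polycomb genes and Smchd1, which encodes a chromosomal protein that is not a Polycomb subunit. Of the 15 Polycomb genes, 14 reached 10 counts, with a median of 22.1 exonic TPM, and with Smchd1 the median was 27.1. Suz12 and Eed, core subunits of PRC2, were highest at 1350.2 ± 217 and 551 ± 41.5 exonic TPM (SD, n = 2). Cbx8, a PRC1 reader of H3K27me3, was at 0. Ring1, a PRC1 ubiquitin ligase gene with 9 and 1 counts, was next lowest at 0.335 ± 0.359 exonic TPM. Other PRC1 genes were high, with Rnf2 at 336 ± 73.2 and Pcgf6 at 241 ± 12.7 exonic TPM. Of the 14 Polycomb genes tested, 12 were called between the libraries, 5 higher and 7 lower in replicate 2. Over all genes 60.8% were called, 15.1% higher and 45.7% lower. The Polycomb genes and Smchd1 are given as levels only, with no relation to a Hox gene tested.

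Of 9 activators upstream of Hox genes, 7 reached 10 counts. Of these 7, 5 were called between the libraries, beside 60.8% of all genes. All 5 were lower in replicate 2, beside 45.7% of all genes called lower. Kmt2a, the H3K4 methyltransferase MLL1, was highest at 11.3 ± 1.02 exonic TPM, followed by Men1, its partner menin, at 5.66 ± 2.72. The caudal factors that open the central and posterior Hox genes in the embryo were at the other end, with Cdx2 at 0 and Cdx1 at 0 and 1 counts. Cdx4 had 7 and 8 counts, the same pair as Hoxc4. The retinoic acid receptor genes Rara, Rarb and Rarg lay between 1.16 and 3.23 exonic TPM.

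Of 9 TALE genes, whose proteins bind DNA together with Hox proteins, 8 reached 10 counts. Pbx3 was highest at 109.6 ± 20 exonic TPM and Pbx2 next at 27.4 ± 2.15. The lowest were Meis3, with 4 and 1 counts, and Meis1, with 80 and 54 counts and 1.30 ± 0.160 exonic TPM. The median of these cofactors was 4.40 exonic TPM, beside 0.0799 for the Hox genes.

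The labelled cell type was checked with marker lists. All 10 ES cell markers had a mean over 10 span TPM, with a median of 217 exonic TPM, led by Tdgf1 at 2283 ± 195 exonic TPM. The libraries stood apart on these markers, since all 10 were called between them, beside 60.8% of all genes, and 9 were called lower in replicate 2, beside 45.7%. Pou5f1, which encodes Oct4, had 1129 and 142 counts, or 160.3 and 26.5 span TPM. Dppa5a had 2915 and 298 counts, and Esrrb was at 18.2 and 8.62 span TPM. The labels also carry the words mESC to NPC, and 7 of 10 neural precursor markers were under 10 counts, Sox1 and Olig2 among those at 0. The other 3 were Otx2, which is also an epiblast gene, at 161 ± 7.62 exonic TPM, Nes, which encodes nestin, with 181 and 136 counts, and Pax6 with 46 and 23. Of 10 primitive streak and mesoderm genes, 6 were under 10 counts, Gsc, Mesp1 and Msgn1 were at 0, and Eomes was highest at 12.6 ± 2.39 exonic TPM.

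Fibroblasts keep the Hox code of their site of origin, so markers of the feeders were read beside the Hox counts. Of 15 fibroblast markers, 9 were under 10 counts, with a summed level of 40.3 span TPM in replicate 1 and 40.4 in replicate 2. Lum was at 0, Col3a1 had 0 and 1 counts, Dcn 2 and 1, and Col1a1 4 and 5. Twist1 had 111 and 95 counts and made up most of the sum. Thy1, with 32 and 2 counts, was the 1 marker of 6 tested that was called between the replicates, beside 60.8% of all genes. The part of feeder RNA in the Hox counts was not tested. In bulk samples, few cells with much Hox RNA and many cells with little cannot be told apart.

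**Figure D5:**
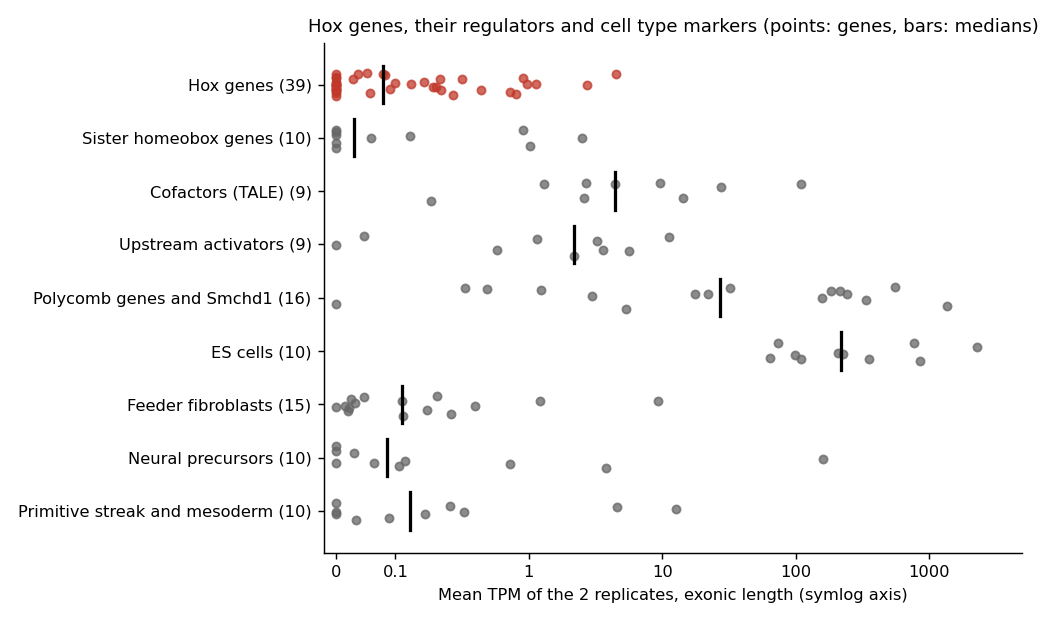
Mean exonic TPM over the 2 replicates (x axis, symlog) of the Hox genes, of genes that act on or with them and of cell type markers (y axis, number of genes in brackets), with 1 point per gene and a bar at each median. The Hox median lies at 0.0799, beside 27.1 for the Polycomb genes with Smchd1 and 217 for the ES cell markers.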

How the data were processed

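Poly(A) mRNA was sequenced from 2 replicates of 1 group, grouped by their labels. Per the file headers, the deposited counts are whole fragments counted by the authors with featureCounts 1.5.2, in reverse-stranded mode, over transcript features grouped by gene, so introns count. The submitters' processing notes name mm10, Bowtie2 2.3.2 and STAR 2.4.2a. A letter b in the descriptions of the samples is missing from the column names, which were otherwise equal and matched on that basis. Coordinates are as in the deposited table, in which 58.5% of 21082 starts lie 1 base below RefSeq.

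From the counts, CPM and TPM were computed with the deposited span or with the exonic length of GENCODE M21 (98.1% of genes, all 39 Hox genes), and the 2 replicates were averaged. Intervals are exact. Replicates were compared by a two-sided exact binomial test over genes with at least 10 counts, adjusted at 0.05. It was tried on simulated counts with sampling noise only. The changed genes there had more counts than most Hox genes tested, so the trial does not cover those. Log2 ratios had 0.5 counts added. Alternatives used edgeR 4.0.16 and DESeq2 1.42.0 scaling (R 4.3.3), a GC trend, other minimums, and each library alone. With 1 group, no quasi-likelihood test of a condition could be made. Python 3.11.15, scipy 1.17.1 and matplotlib 3.10.9 were used.

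The rule named each Hox gene with at least 10 counts with both counts, CPM and TPM, and every other Hox gene with its counts or as at 0. It also named the genes next to each cluster, any within 200 kb with at least 10 TPM, and the 2 highest and lowest regulators of each list. The rule for the members uses gene names only, but the Hox genes and the lists were chosen for description with earlier results of these data known. Homeodomains were not analysed here, and some genes are not reported here by name, although sums and counts include them.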

Additional observations from a re-analysis of the deposited data

How the results depend on the processing

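Of 69 alternatives over 13 results, 49 were labelled as the same and 20 as moved. Levels and shares were judged by the SD of the 2 libraries, and the replicate ratio by the spread over genes. Gene numbers were judged by a fold limit. A mean of 2 libraries cannot move beyond its SD when 1 is left out. For summed CPM and for shares, those alternatives were the same by construction, so the 49 is no measure of robustness. The median Hox level of 0.191 span TPM was 0.0457 as CPM, and lay between 0.0698 and 0.238 with 1 library left out, the lower value being without replicate 2. By span TPM, HoxA held 16.0%, HoxC 29.8% and HoxD 48.7% of the Hox signal, the posterior genes 61.3% and the outermost genes 75.03%. Without the most counted gene of each cluster the shares were 14.8% for HoxA, 7.06% for HoxB, 18.1% for HoxC and 60.1% for HoxD. Without the most counted gene of each class the anterior share was 25.3% and the posterior share 64.2%. Without Hoxc13 and Hoxd13 the outermost share was 41.6%, the anterior 44.3%, the central 26.8% and the posterior 28.9%; these alternatives and the outermost division were chosen after seeing the data. With the GC trend as the null, 1 Hox gene (Hoxc13) differed between replicates, against 0. The median log2 replicate ratio turned from −0.34 to 0.23 with the GC trend removed, and the cause was not tested. Over all Hox genes with a count the median was also 0.23. That is the value of any gene with equal counts in both libraries, such as Hoxc12 with 5 in each. TMM and DESeq2 scaling raised all log2 replicate ratios by 0.22 and 0.31.

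With either library alone, 6 Hox genes reached 10 counts, against 9 in both together, and 13 reached 5 counts in both together. Summed Hox CPM lay between 9.96 and 10.96 with 1 library left out. The shares with 1 library left out lay between 10.9% and 13.5% for HoxA, 3.08% and 5.94% for HoxB, 37.3% and 42.6% for HoxC, and 40.6% and 46.2% for HoxD. They lay between 18.3% and 23.5% for the anterior genes, 9.62% and 15.8% for the central genes, 65.8% and 66.9% for the posterior genes, and 71.3% and 73.5% for the outermost genes. Counts below about 10 limit what can be said of single Hox genes. No paired analysis was possible because both libraries belong to the same group and there is no other group to pair them with.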

Other observations

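The nearest relatives of the Hox genes outside the clusters were also low. Of 10 sister homeobox genes, 5 (Evx1, Evx2, Gsx1, Pdx1 and Meox1) were at 0 in both libraries, and 3 reached 10 counts. Gbx2, which marks the hindbrain border and is also known in naive pluripotency, had 49 and 25 counts, or 2.49 ± 0.789 exonic TPM (SD, n = 2). Meox2, a somite gene, had 24 and 10 counts, and Gbx1 had 27 and 16. Gsx2 had 2 and 1 counts and Mnx1 had 2 and 0. The median of this list was 0.0296 exonic TPM, beside 0.0799 for the Hox genes and 1.85 for all genes.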
